A study of Arabidopsis thaliana with 16 samples.

Results

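Of the 22746 probe sets on the array that are not controls, 75 read higher in the phyB-1 mutant than in the Ler wild type at both growth temperatures, and these 75 are described here. They were chosen by measured values: the mean log2(intensity + 16) over 4 phyB-1 arrays minus that over 4 Ler arrays had to be at least 0.5 at 16 °C and at 22 °C. The difference between 22 and 16 °C also had to stay within 0.7 in Ler or in phyB-1. At 0.5 or more at both temperatures stood 87 probe sets, 7 of them failed the temperature condition, and 5 that passed (IAA29, GH3.5, MYC3, AT3G53980 and AT5G05960) were left out by name. The same rule with the sign turned found 25 probe sets. Since the genotype and temperature differences chose the members, they are given as a description with no test. The difference between sampling times was not used by the rule, and it was tested.

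Plants of Arabidopsis thaliana, the whole plant without roots, were measured on Affymetrix ATH1 arrays, 16 arrays in all. The wild type is Landsberg erecta (Ler). The mutant is phyB-1, which carries a mutated phytochrome B gene in that background, and nothing else separates the genotypes in the labels. Each genotype is labelled with 16 or 22 °C and with 4 or 10 h, which makes 8 groups of 2 arrays. The event from which the hours were counted is not stated. One growth protocol is given for every sample, with stratification at 4 °C for 5 days, then 11 days at 16 °C and 21 days at 22 °C, and it does not say when 16 °C plants were harvested. The labels do not say whether the 2 arrays of a group came from separate plants, so the p-values measure the spread between these samples, which may be technical.

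Phytochrome B is a photoreceptor that red light converts to its active form and far-red light or darkness returns to the inactive one. The active form enters the nucleus and brings about the breakdown and inhibition of the phytochrome-interacting factors (PIFs), transcription factors that promote elongation growth. It reverts faster in the dark when it is warm, and it acts as a temperature sensor as well as a light sensor. Plants without it are tall, pale and early flowering and resemble plants grown in the shade of neighbours, where genes of auxin synthesis and cell wall loosening are active.

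Among the 75 members, 31 have 1 gene in the annotation table, 1 has several and 43 are not listed there and are called by their probe set. The share with 1 gene is 41.3%, against 59.4% of all probe sets. PHYB has no named probe set, so the mutated gene was not analysed here. The median intensity of the arrays ranged from 30.7 to 41.03, and the 2 arrays of a group correlated at 0.960 to 0.975 in 6 of the 8 groups. The exceptions were phyB-1 at 16 °C, with 0.863 and 0.878 for 4 and 10 h. A score of time, positive for the 10 h pattern, was made from probe sets chosen on the 12 arrays other than phyB-1 at 16 °C. On those 12 it was -1.64 to -1.56 at 4 h and 1.41 to 1.85 at 10 h, a split that the choice of probe sets favours. In phyB-1 at 16 °C, which the choice did not use, replicate 1 scored -1.69 for the 4 h label and 1.28 for the 10 h label. There replicate 2 of the 4 h label scored 1.60 and replicate 2 of the 10 h label scored -1.31. These 2 disputed arrays keep their labels below. Exchanging their times would leave every mean over both times as it is. With both left out, 61 of the 75 members stayed at 0.5 or more at 16 °C and 14 lay below it. The log2 ratio of 3′ to 5′ signal is a sign of RNA quality. For GAPDH it was 0.323 to 0.752 in Ler and 0.507 to 1.63 in phyB-1. For actin it was higher on every array, at 3.05 to 4.26 in Ler and 3.17 to 3.99 in phyB-1. The part of RNA quality in the results was not tested.

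At 16 °C the difference between phyB-1 and Ler was 0.50 to 2.42 over the members, with a median of 0.70, where the median of all probe sets was 0.01. At 22 °C it was 0.51 to 2.14, with a median of 0.68, against 0.00 for all. These ranges were set by the rule: 2.49% of all probe sets reached 0.5 at 16 °C and 2.08% at 22 °C. Most members lay near the threshold. A difference of 1 or more was seen in 13 members at 16 °C and in 12 at 22 °C, and 5 members had it at both: THI2.2, AT3G57010, 254452_at, 258158_at and 262369_at, listed after their values were seen. The difference was larger at 22 °C in 42 members and at 16 °C in 33, and 46 had differences within 0.2 of each other at the 2 temperatures.

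**Figure D1:**
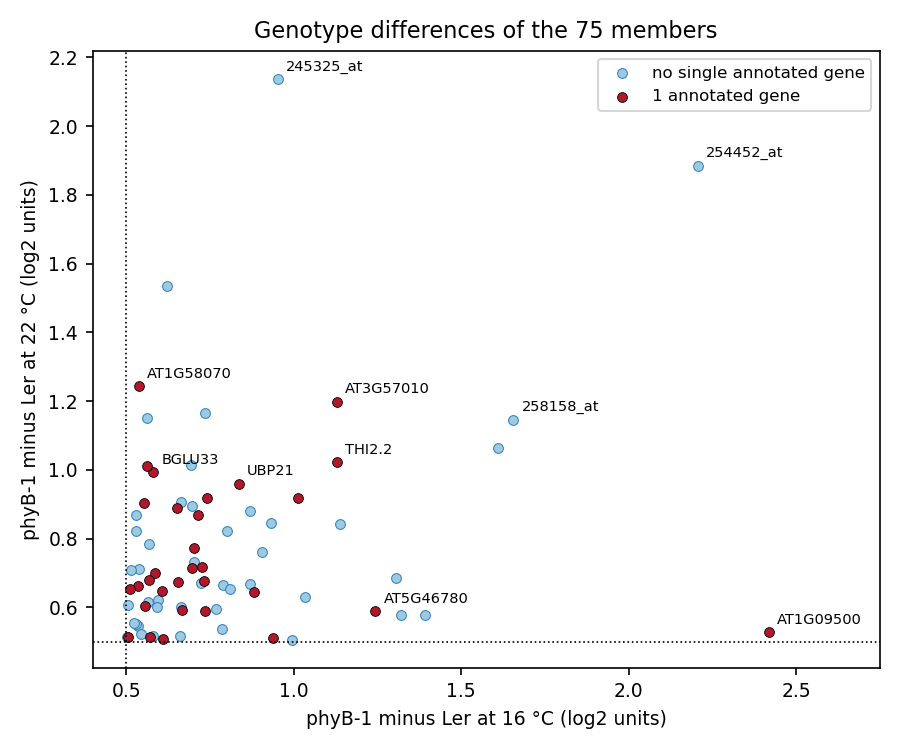
Each point is 1 of the 75 members, with its mean difference between phyB-1 and Ler at 16 °C on the horizontal axis and at 22 °C on the vertical axis, both in log2 units (4 arrays against 4). Dotted lines mark the threshold of 0.5, dark red points have 1 annotated gene, and most points lie close to the corner that the rule sets, with 254452_at far from it on both axes and AT1G09500 and 245325_at far from it on 1 axis.

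The spread between arrays was wide beside differences of this size. All 4 phyB-1 arrays stood above all 4 Ler arrays in 23 members at 16 °C and in 21 at 22 °C, where 1.25% and 1.36% of all probe sets did, and the rule had used these values. Of the 31 members with a single gene, none was free of overlap at both temperatures. Only 8 members were, all of them without a listed gene, and 0.0967% of all probe sets were. When arrays were paired by temperature, time and replicate number, 38 members were higher in phyB-1 in all 8 pairs, against 1.21% of all probe sets, 33 in 7 pairs and 4 in 6 pairs. At 16 °C the pairs of replicate 2 each hold a disputed array, kept under its label.

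Values below are the deposited MAS5 intensities, in the order 4 h replicate 1, 4 h replicate 2, 10 h replicate 1 and 10 h replicate 2. In phyB-1 at 16 °C the second and the fourth value come from the disputed arrays. Means carry the SD of 4 arrays. Differences are on the log2(intensity + 16) scale, which understates the change of dim probe sets. In whole shoots, fewer cells of a type and less RNA per cell cannot be told apart.

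EXPA15 encodes an alpha-expansin, a protein that loosens cell walls during elongation. It read 259.6, 163, 72.2 and 63.5 in Ler and 279, 115, 164 and 292 in phyB-1 at 16 °C, with means of 139.6 ± 91.8 and 212 ± 86.7. At 22 °C it read 136, 142, 59.4 and 77.1 in Ler and 220.0, 313, 88.9 and 118 in phyB-1, with means of 104 ± 41.7 and 185 ± 102. The genotypes overlapped at both temperatures, 7 of 8 pairs were higher in phyB-1, and the exception was the pair of 4 h, replicate 2, at 16 °C, which holds a disputed array. The differences were 0.66 and 0.67.

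TBL36 belongs to the trichome birefringence-like family, whose characterised members acetylate wall polysaccharides. It read 52.4, 11.5, 51.9 and 23.4 in Ler and 71.3, 71.5, 58.9 and 49.9 in phyB-1 at 16 °C. At 22 °C the values were 67.9, 31.4, 44.2 and 40.8 in Ler and 64.2, 90.3, 81.0 and 104 in phyB-1. A single Ler array, that of 4 h replicate 1, reached into the phyB-1 range at 22 °C, both Ler arrays of replicate 1 did at 16 °C, and the differences were 0.73 and 0.72. They came more from replicate 2 (1.21 at 16 °C and 1.12 at 22 °C) than from replicate 1 (0.25 and 0.31).

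AT3G44050, annotated as a kinesin, a motor protein of microtubules, stood lower. Its means were 14.5 ± 14.3 in Ler and 26.4 ± 9.74 in phyB-1 at 16 °C and 12.9 ± 2.77 and 25.5 ± 6.21 at 22 °C. The 22 °C arrays did not overlap, whereas at 16 °C the Ler arrays ranged from 1.26 to 30.02 and took in 2 of the 4 phyB-1 values.

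Other genes of wall loosening did not reach 0.5 at both temperatures. Of 14 genes in a list of cell wall expansion, 6 had a named probe set and EXPA15 was the only member. The list's median difference was 0.08 at 16 °C and 0.46 at 22 °C. EXPA8 had differences of 0.09 and 0.61 and EXPA4 of 0.07 and 0.55, so both reached 0.5 at 22 °C and not at 16 °C. Over the 10 named EXPA probe sets the medians were -0.05 and -0.02, and 3 of the 10 were above 0 at both temperatures, where 29.1% of all probe sets were. The 24 TBL probe sets had medians of -0.01 and 0.13 with 1 member among them.

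UBP21 encodes a ubiquitin-specific protease, which removes ubiquitin from proteins. It read 73.1, 30.6, 86.0 and 54.8 in Ler and 137, 83.4, 168 and 92.5 in phyB-1 at 16 °C. The 22 °C values were 57.9, 7.46, 70.0 and 40.4 in Ler and 127, 56.5, 99.4 and 84.3 in phyB-1. Every pair was higher in phyB-1, while the lowest phyB-1 array lay within the Ler range at each temperature. Means were 61.1 ± 24.03 against 120.4 ± 39.6 at 16 °C and 43.9 ± 27.2 against 91.9 ± 29.5 at 22 °C. The 12 named UBP probe sets had median differences of 0.11 and 0.14, and UBP21 was the only member among them.

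AT5G46780 encodes a protein with a VQ motif, found in partners of WRKY transcription factors. It read 19.9, 47.5, 59.3 and 55.5 in Ler and 75.3, 203, 169 and 88.0 in phyB-1 at 16 °C, without overlap. Readings at 22 °C were 49.9, 43.2, 106 and 66.1 in Ler and 84.3, 76.0, 126 and 136 in phyB-1. There the Ler array of 10 h replicate 1 stood above the 2 phyB-1 arrays of 4 h. The differences were 1.24 and 0.59.

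These 2 members lie close together on chromosome 5. In the gene order of assembly TAIR10.1, 3 genes stand between UBP21 and AT5G46780, and the gene midway between them is MYC3, a transcription factor of jasmonate signalling that also passed the thresholds and was left out by name. MYC3 read 96.0 ± 20.4 in Ler and 187 ± 40.9 in phyB-1 at 16 °C, and 101 ± 27.7 and 187 ± 48.4 at 22 °C, differences of 0.85 and 0.80. No other pair among the named members and the genes left out lay within 20 genes of each other.

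Within 30 genes on either side of MYC3 there were 19 named probe sets, 16 of them other than these 3. The differences of those 16 ranged from -0.54 to 0.47 at 16 °C and from -0.19 to 0.51 at 22 °C, with medians of -0.06 and 0.06. One of the 16, AT5G46730, reached 0.5 at either temperature, with 0.32 at 16 °C and 0.51 at 22 °C. AT5G46770, which stands between MYC3 and AT5G46780, had differences of -0.07 and -0.02 at mean intensities of 1.01 to 2.90.

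**Figure D2:**
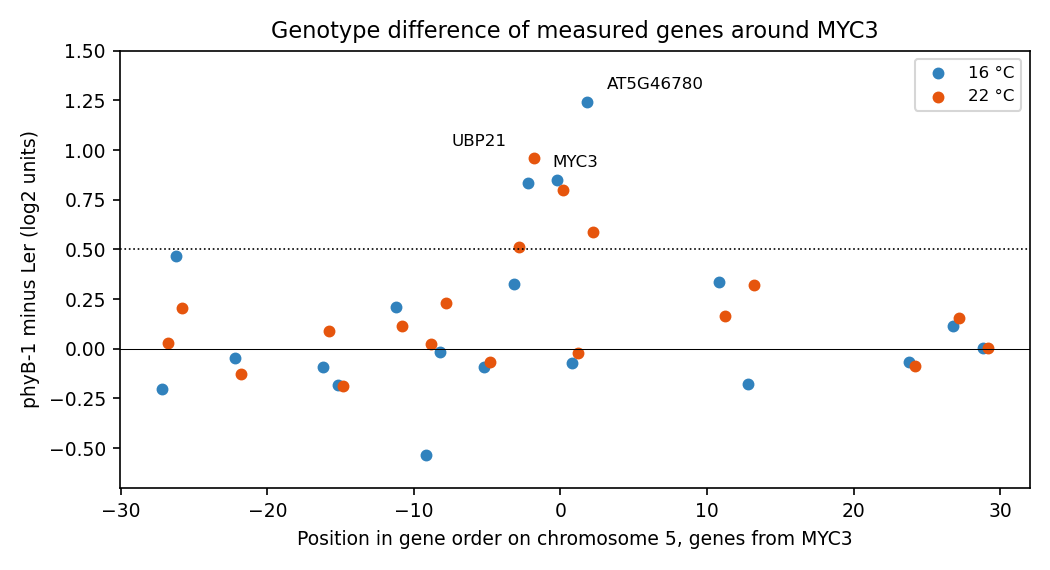
Each named probe set within 30 genes of MYC3 on chromosome 5 is plotted by its place in the gene order of TAIR10.1 (horizontal axis, in genes, with 16 °C and 22 °C points set slightly apart) and by its mean difference between phyB-1 and Ler in log2 units (vertical axis). UBP21, MYC3 and AT5G46780 stand above the dotted line at 0.5 at both temperatures, and of the 16 others AT5G46730 crosses it, at 22 °C.

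THI2.2 encodes a thionin, a small antimicrobial peptide. It read 57.3, 47.0, 5.84 and 26.7 in Ler and 132, 48.0, 82.8 and 89.4 in phyB-1 at 16 °C. The 22 °C values were 11.3, 44.8, 11.5 and 2.4 in Ler and 83.0, 45.6, 38.4 and 27.1 in phyB-1. Every pair was higher in phyB-1, but in the pairs of 4 h replicate 2 the values were nearly equal, and the ranges overlapped at both temperatures. The differences were 1.13 and 1.02.

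AT3G57010 is annotated as strictosidine synthase-like, after an enzyme of alkaloid synthesis in other plants. It read 8.37, 1.69, 0.616 and 1.11 in Ler and 42.5, 11.4, 16.2 and 38.5 in phyB-1 at 16 °C, without overlap. At 22 °C it read 2.13, 18.2, 0.804 and 0.622 in Ler and 51.8, 80.3, 7.08 and 15.9 in phyB-1. The Ler means, 2.95 ± 3.64 and 5.44 ± 8.54, lay below the highest lower quartile of intensity among the arrays, 11.5, and the phyB-1 means, 27.1 ± 15.6 and 38.8 ± 33.8, above it. Single arrays crossed that level: the Ler array at 18.2 stood above it, and the phyB-1 arrays at 11.4 and 7.08 stood below it. The differences were 1.13 and 1.2.

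BGLU33 and PYK10 (BGLU23) are beta-glucosidases, and PYK10 is the main protein of the endoplasmic reticulum bodies of roots and seedlings. BGLU33 read 237, 182, 193 and 136 in Ler and 287, 295, 204 and 365 in phyB-1 at 16 °C, where the lowest phyB-1 array stood below the highest Ler array. The 22 °C values were 119, 207, 126 and 172 in Ler and 324, 415, 256 and 299 in phyB-1, without overlap, and the differences were 0.58 and 0.99. Without the disputed arrays the BGLU33 difference at 16 °C was 0.37.

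PYK10 read 234, 92.2, 209 and 118 in Ler and 219, 241, 262 and 212 in phyB-1 at 16 °C, and 182, 202, 189 and 259 in Ler and 301, 310.0, 307 and 374 in phyB-1 at 22 °C. The 22 °C arrays did not overlap, and at 16 °C the difference came from the 2 low Ler arrays of replicate 2. The differences were 0.56 and 0.60. PYK10 also belongs to a list of root markers, since roots are its main site. Of the 6 root markers 2 had a named probe set, and the other, EXPA7 of root hairs, had differences of -0.30 and -0.56 at intensities of 0.996 to 46.1. The summed root markers read 94.8 to 259 in Ler and 213 to 281 in phyB-1 at 16 °C, and 203 to 267 and 312 to 375 at 22 °C. The part of root material in the PYK10 difference was not tested. The 3 measured leaf markers (RCA, LHCB4.1 and PSBY, of 8 listed) summed to 12855 to 28987 on all arrays, with differences of -0.12 to 0.05. Over the 22 named BGLU probe sets the median difference was 0.03 at 16 °C and -0.07 at 22 °C, and 6 of the 22 were above 0 at both.

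AT5G44400 belongs to the berberine bridge enzyme-like family of flavin-dependent oxidases. It read 219, 129, 108 and 123 in Ler and 254, 179, 144 and 313 in phyB-1 at 16 °C, and 177, 205, 71.7 and 74.0 in Ler and 376, 422, 161 and 168 in phyB-1 at 22 °C. The genotypes overlapped when both times were pooled, and every pair was higher in phyB-1. The differences were 0.56 and 1.01, and the 16 °C value was 0.42 without the disputed arrays.

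AT4G11190 encodes a dirigent-like protein, of a family that guides the coupling of lignan precursors. Its means were 23.1 ± 14.0 in Ler and 47.0 ± 14.7 in phyB-1 at 16 °C, and 8.26 ± 8.89 and 27.6 ± 11.1 at 22 °C. It was higher in phyB-1 in all 8 pairs, with differences of 0.71 and 0.87. AT1G19320, a thaumatin-like protein of the pathogenesis-related kind, had means of 4.16 ± 4.08 and 18.4 ± 13.5 at 16 °C and of 13.6 ± 15.7 and 32.1 ± 13.5 at 22 °C. AT5G01210, annotated as an acyltransferase, had means of 54.1 ± 18.5 in Ler and 88.0 ± 33.2 in phyB-1 at 16 °C, and 70.8 ± 12.2 and 148 ± 35.4 at 22 °C. Its 22 °C arrays did not overlap, with Ler at 62.5 to 88.9 and phyB-1 at 122 to 200.1. Without the disputed arrays the AT5G01210 difference at 16 °C was 0.43.

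AT1G09500, annotated as similar to cinnamyl alcohol dehydrogenase, had the largest difference of the 75 members at 16 °C. It read 1.63, 1.88, 4.88 and 0.563 in Ler and 60.8, 228, 6.58 and 194 in phyB-1 at 16 °C. Readings at 22 °C were 0.994, 3.65, 1.55 and 3.51 in Ler and 15.1, 1.3, 14.2 and 14.3 in phyB-1. The 2 highest phyB-1 values at 16 °C came from the disputed arrays, and without these the difference was 1.2 in place of 2.42. At 22 °C it was 0.53, with 1 phyB-1 array among the Ler values.

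AT4G33550 and AT1G48750 belong to the superfamily of lipid transfer proteins and protease inhibitors. AT4G33550 read 41.7, 24.4, 21.4 and 11.1 in Ler and 92.6, 23.2, 26.4 and 63.9 in phyB-1 at 16 °C, and 83.4, 67.6, 22.9 and 15.6 in Ler and 173, 177, 46.9 and 36.2 in phyB-1 at 22 °C. At 22 °C phyB-1 exceeded Ler within each time, and the pooled ranges overlapped because the 4 h arrays were high in both genotypes. The differences were 0.65 and 0.89.

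AT1G48750 was steadier. It read 166, 134, 108 and 111 in Ler and 281, 140.0, 210.5 and 205 in phyB-1 at 16 °C, and 180.0, 135, 113 and 98.4 in Ler and 227, 206, 219 and 191 in phyB-1 at 22 °C. The 22 °C arrays did not overlap, the 16 °C arrays did through a single phyB-1 array, a disputed one, and the differences were 0.61 and 0.65.

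AT5G17850, of the sodium/calcium exchanger family, was dim in Ler with means of 8.07 ± 7.25 and 4.92 ± 4.46, and read 27.1 ± 4.62 and 17.3 ± 9.34 in phyB-1. AT5G23750, a remorin, a protein bound to the plasma membrane, had means of 36.3 ± 17.1 in Ler and 57.4 ± 19.5 in phyB-1 at 16 °C and 69.6 ± 46.5 and 109.6 ± 49.3 at 22 °C. AT3G05640, a protein phosphatase of the PP2C class, had means of 44.6 ± 14.4 and 76.0 ± 18.2 at 16 °C and 64.4 ± 31.99 and 97.5 ± 41.2 at 22 °C. The genotypes overlapped at both temperatures in the remorin and in the phosphatase, which lay just inside the threshold.

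FDH encodes the mitochondrial formate dehydrogenase, which oxidises formate to carbon dioxide. It read 231, 289, 287 and 369 in Ler and 270.3, 587, 442 and 689.6 in phyB-1 at 16 °C. The 2 highest of these came from the disputed arrays, and without them the 16 °C difference was 0.24 in place of 0.67. The 22 °C values were 296, 265, 731 and 589 in Ler and 420.0, 409, 1067 and 1003 in phyB-1, with phyB-1 higher within each time and a difference of 0.59.

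AT2G30540 encodes a glutaredoxin, a small thiol protein that reduces disulfides. It read 52.6, 71.0, 121 and 139.8 in Ler and 167, 210.5, 111 and 171 in phyB-1 at 16 °C, and 15.8, 62.5, 112 and 192 in Ler and 49.4, 70.0, 215 and 246 in phyB-1 at 22 °C. The pair of 10 h replicate 1 at 16 °C went the other way, and the differences were 0.74 and 0.59. AT1G67420, annotated as a zinc exopeptidase, had means of 10.9 ± 8.71 in Ler and 24.7 ± 17.2 in phyB-1 at 16 °C and 12.7 ± 5.83 and 29.7 ± 8.04 at 22 °C.

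AT3G03790 encodes a protein with ankyrin and RCC1 repeats. It read 98.1, 68.7, 31.4 and 47.9 in Ler and 111, 109, 103 and 101 in phyB-1 at 16 °C, without overlap. At 22 °C it read 67.2, 33.1, 23.1 and 72.4 in Ler and 82.5, 95.9, 64.3 and 88.0 in phyB-1. The phyB-1 arrays stood close together, at 106 ± 4.57 and 82.6 ± 13.4, while Ler was more spread, at 61.5 ± 28.8 and 48.9 ± 24.5. AT3G07350, of unknown function, was variable in both genotypes, with means of 39.99 ± 38.6 and 67.2 ± 57.6 at 16 °C and of 25.2 ± 16.3 and 51.1 ± 28.3 at 22 °C. Its 16 °C difference was 0.59, and 0.10 without the disputed arrays.

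**Figure D3:**
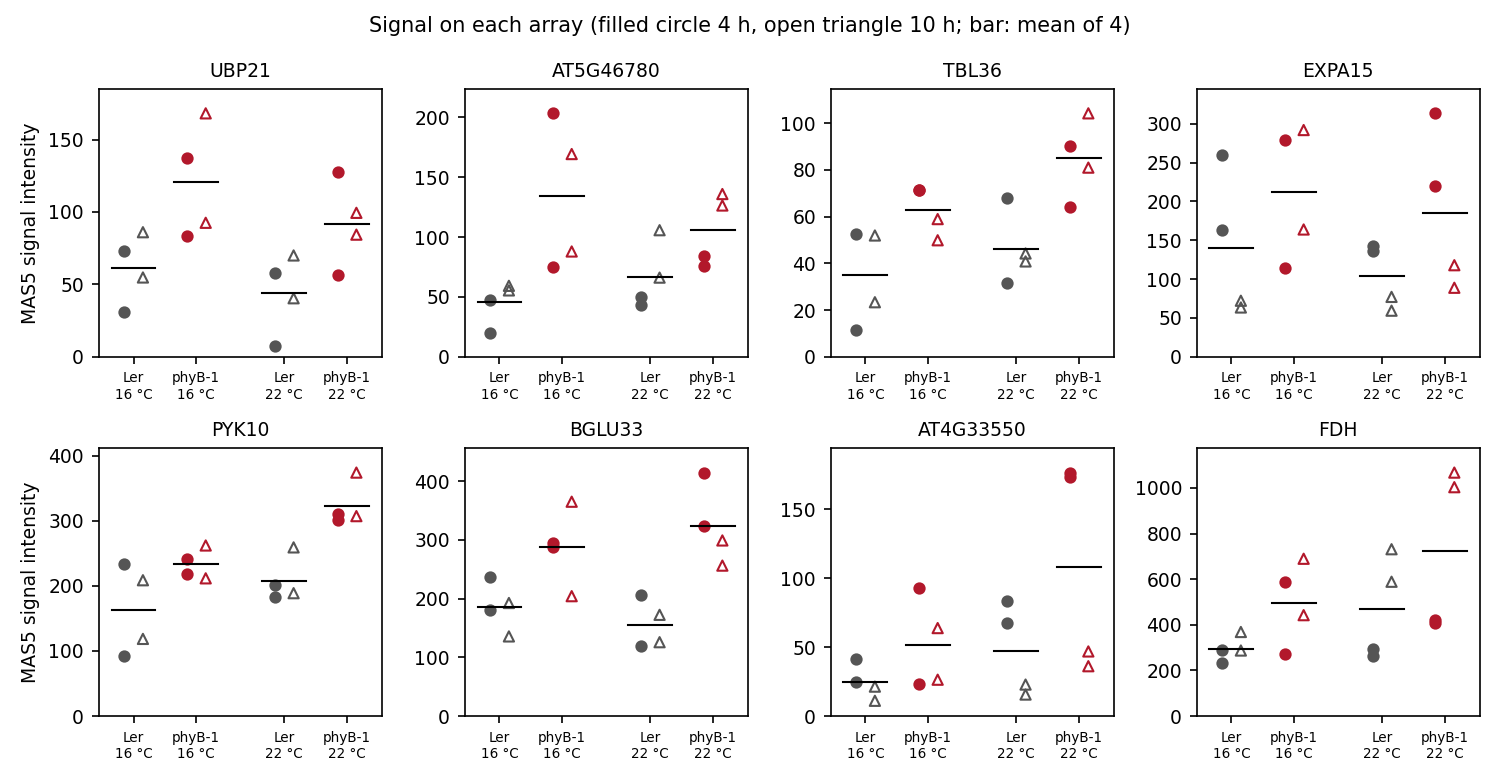
MAS5 intensities of 8 members on every array, with Ler in grey and phyB-1 in red, 4 h arrays as filled circles, 10 h arrays as open triangles and bars at the mean of 4 arrays. Means stand higher in phyB-1 in every panel, as the rule requires, the single arrays overlap in most panels, and EXPA15, AT4G33550 and FDH split by time at 22 °C in both genotypes.

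Among the 43 unlisted members are those whose genotypes were best separated. 254452_at read 15.1, 2.01, 2.96 and 0.852 in Ler and 90.5, 69.9, 69.5 and 88.0 in phyB-1 at 16 °C. The 22 °C values were 4.13, 0.645, 20.1 and 4.83 in Ler and 68.0, 67.3, 74.3 and 58.3 in phyB-1. No Ler array exceeded 20.1 and no phyB-1 array was below 58.3, with mean differences of 2.21 and 1.89.

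258158_at read 4.43, 28.4, 9.07 and 29.1 in Ler and 168, 58.4, 31.1 and 141 in phyB-1 at 16 °C, without overlap. Readings at 22 °C were 49.9, 54.7, 5.29 and 9.51 in Ler and 270.2, 168, 10.5 and 27.5 in phyB-1, where the genotypes separated within each time. The differences were 1.66 and 1.15.

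248863_at, singled out after its values were seen, varied little between arrays. It read 223, 235, 193 and 242 in Ler and 358, 432, 366 and 451 in phyB-1 at 16 °C, and 185, 255, 257 and 226 in Ler and 376, 437, 415 and 444 in phyB-1 at 22 °C. The highest Ler array was at 257 and the lowest phyB-1 array at 358, with differences of 0.80 and 0.82. The remaining members without overlap at both temperatures were 257093_at, 257766_at, 261574_at, 262260_at, 263083_at and 266184_s_at, with differences of 0.53 to 1.17.

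Splitting the arrays by their labels showed how few members kept the threshold in every part of the data. At both temperatures 47 members reached 0.5 in replicate 1 alone, 44 in replicate 2 alone and 23 in each of them. In the 4 h arrays alone 35 did, in the 10 h arrays alone 54, and in each time 22. At 16 °C each of these times holds 1 disputed phyB-1 array under its label. The rule was met without any one of the 16 arrays by 19 members. Meeting all of these were 10: UBP21, THI2.2, AT3G57010, AT2G12050, 248863_at, 254452_at, 258158_at, 261574_at, 262369_at and 266415_at. Since these splits reuse the values that chose the members, they describe the spread only. The part of the disputed labels in the counts by time, and so in the 10, was not tested.

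At the threshold, 39 members had a smaller difference of 0.5 to under 0.6, and 89 probe sets lay just outside, from 0.4 to under 0.5. Just inside stood AT4G10690 at 0.51, AT3G05640 at 0.51 and AT5G23750 at 0.51. Just outside stood AT4G22490 at 0.50, AT1G28400 at 0.49 and AT1G11470 at 0.49, the first of them under 0.5 before rounding. In Ler, 11 members read below the highest lower quartile at both temperatures, 14.7% against 25.02% of all probe sets, and 20 did at either temperature. A mean of 50 or more in all 4 genotype and temperature groups was seen in 25 members.

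Of the 31 members with a gene, 6 lie on chromosome 1, 5 on chromosome 2, 8 on chromosome 3, 4 on chromosome 4 and 8 on chromosome 5. Pseudogenes were 3 of the 31, or 9.68%, where 7.44% of all probe sets with a gene of known type were. The transcribed pseudogene AT2G12050 read 17.7 ± 10.7 in Ler and 51.8 ± 19.5 in phyB-1 at 16 °C and 18.5 ± 15.9 and 45.0 ± 13.3 at 22 °C, and it was higher in all 8 pairs. AT4G08680 read 8.62 ± 7.93 and 24.8 ± 10.7 at 16 °C and 3.05 ± 2.57 and 20.02 ± 4.78 at 22 °C. AT4G10690 read 15.3 ± 9.31 and 31.3 ± 23.9 at 16 °C and 15.8 ± 13.9 and 29.1 ± 18.6 at 22 °C, and was higher in 6 of 8 pairs. The probe sets of AT2G12050 and AT4G08680 carry the suffix s_at, which marks probes shared by several transcripts, so related copies cannot be told apart. Shared-probe suffixes were on 7 of the 75 members, 9.33% against 4.66% of all probe sets.

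Differences between the temperatures were small in most members, as the rule favours. The difference between 22 and 16 °C in Ler ran from -0.80 to 1.16 with a median of 0.10, and in phyB-1 from -1.87 to 1.29 with a median of 0.12. It was 0.7 or more in 3 members in Ler and in 8 in phyB-1, and -0.7 or less in 1 and 3. Among named members, AT1G63540 had the highest value in phyB-1 at 0.82, with means of 19.9 ± 14.4 at 16 °C and 43.8 ± 9.26 at 22 °C. Next were AT4G33550 at 0.76 and AT1G58070 at 0.74. AT1G58070 read 5.18, 17.5, 14.4 and 18.3 in Ler and 39.7, 16.1, 36.9 and 18.8 in phyB-1 at 16 °C, and 6.06, 23.3, 13.5 and 15.7 in Ler and 74.8, 48.4, 65.5 and 37.5 in phyB-1 at 22 °C. Its Ler values were alike at the 2 temperatures, and its genotypes were free of overlap at 22 °C alone. Lower at 22 °C in phyB-1 were AT1G09500 at -1.87, THI2.2 at -0.70 and AT4G11190 at -0.54. For AT1G09500, the 16 °C readings of 228 and 194 in phyB-1 came from the disputed arrays, beside 60.8 and 6.58 in replicate 1.

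The time of sampling was independent of the rule, and it separated many of the members. Differences between 10 and 4 h were tested with limma on 12 arrays in 6 groups, leaving out phyB-1 at 16 °C, which holds the disputed arrays. A probe set is called where its adjusted p is under 0.05, and 57 of the 75 members were bright enough to be tested. Brightness was the mean over all 16 arrays, so members dim in Ler could enter through phyB-1, where the rule makes them high. The shares of members set beside those of all probe sets carry this limit. In Ler 26 of the 57 were called, 18 lower at 10 h and 8 higher, or 45.6%, where 26.1% of all 13648 tested probe sets were called, 13.1% lower and 13.0% higher. The members' median was -0.21 against -0.01 for all. Leaving out 1 array at a time gave 21 to 25 calls.

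In phyB-1 at 22 °C 19 members were called, 14 lower at 10 h and 5 higher, or 33.3%, where 15.8% of all were, 7.88% lower and 7.89% higher. The median was -0.10 against 0.01. Without 1 array, 14 to 20 were called. Both genotypes shared 17 of these calls, 12 lower and 5 higher at 10 h, with no member going opposite ways. The share of all tested probe sets called in both is not given here. The overlap is therefore not shown to be particular to the members. The 2 differences share no arrays, but they share 1 estimate of the spread.

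Genes lower at 10 h are taken first. EXPA15 fell by 1.15 ± 0.17 (SE) in Ler, with an adjusted p of 6.2e-05 in limma, and fell by 1.23 ± 0.24 in phyB-1, with an adjusted p of 0.0016. All 4 Ler arrays of 10 h, at 59.4 to 77.1, stood below the 4 of 4 h, at 136 to 259.6. In AT4G33550, the lipid transfer gene, the level fell by 0.99 ± 0.19 in Ler (limma adjusted p = 0.00067) and fell by 1.74 ± 0.27 in phyB-1 (0.00017). The remorin AT5G23750 fell by 1.12 ± 0.17 in Ler and fell by 0.98 ± 0.24 in phyB-1, with limma adjusted p of 6.2e-05 and 0.008. AT5G44400 fell by 0.86 ± 0.15 and fell by 1.2 ± 0.22, with adjusted p of 0.00043 and 0.00085. The phosphatase AT3G05640 fell by 0.64 ± 0.18 and fell by 0.91 ± 0.25, with adjusted p of 0.013 and 0.02. Leaving out single arrays ended some of these calls. For the remorin in phyB-1 it was either 22 °C array of replicate 1 (adjusted p of up to 0.090). For the phosphatase it was the array of Ler 16 °C 4 h replicate 1 in Ler (0.074) and, in phyB-1, any 22 °C array but that of 10 h replicate 2 (up to 0.24).

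THI2.2 and AT1G48750 were called in Ler alone. The thionin fell by 1.01 ± 0.29 in Ler (limma adjusted p = 0.016), and its difference in phyB-1 was -0.69 ± 0.41 (0.32). AT1G48750 fell by 0.45 ± 0.14 in Ler (0.025), and the phyB-1 difference was -0.07 ± 0.20 (0.88). The genotype by time test at 22 °C did not call either of them, so a difference between the genotypes is not shown. The Ler call of the thionin was lost without either 16 °C array of replicate 1 or either 22 °C array of replicate 2, with adjusted p of up to 0.098. That of AT1G48750 was lost without any of 5 arrays, namely Ler 16 °C 4 h replicate 1, both of Ler 16 °C 10 h, Ler 22 °C 4 h replicate 1 and Ler 22 °C 10 h replicate 2, with adjusted p of up to 0.11.

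Among genes higher at 10 h, FDH rose by 0.75 ± 0.13 in Ler and by 1.29 ± 0.19 in phyB-1, with limma adjusted p of 0.00039 and 0.00012. The glutaredoxin AT2G30540 rose by 1.31 ± 0.24 and by 1.72 ± 0.33, with adjusted p of 0.00041 and 0.0016. AT5G46780 rose by 0.65 ± 0.19 in Ler (0.017), and its difference in phyB-1 was 0.61 ± 0.27 (0.15). AT3G07350 rose by 1.01 ± 0.32 in Ler (0.028), with 1.02 ± 0.46 in phyB-1 (0.16). The call of AT5G46780 was lost without Ler 16 °C 4 h replicate 1, Ler 22 °C 10 h replicate 1 or Ler 22 °C 4 h replicate 2, with adjusted p of up to 0.097. That of AT3G07350 was lost without any of 5 Ler arrays, namely 4 h replicate 1 and 10 h replicate 2 at 16 °C, 4 h replicate 1 at 22 °C and both of 10 h at 22 °C, with adjusted p of up to 0.17. UBP21, TBL36, BGLU33, PYK10, AT3G03790, 254452_at and 248863_at were called in neither genotype. The Ler means of 254452_at, 5.24 ± 6.65 at 16 °C and 7.43 ± 8.66 at 22 °C, lay below the lower quartile of 11.5, so its missing call in Ler does not show a steady level.

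Wide time differences were also seen in unlisted members, singled out after their values were seen. 264146_at read 284, 373, 77.7 and 88.4 in Ler at 16 °C and 912, 1234, 92.5 and 98.5 at 22 °C, and 1493, 1659, 174 and 184 in phyB-1 at 22 °C. It fell by 2.53 ± 0.14 in Ler and fell by 3.03 ± 0.20 in phyB-1, with limma adjusted p of 5.9e-10 and 1.6e-08. 264147_at fell by 2.23 ± 0.21 and fell by 2.93 ± 0.30, with adjusted p of 4.7e-07 and 2.7e-06. In the other direction, 245885_at rose by 1.81 ± 0.18 and by 1.66 ± 0.25, with adjusted p of 7.0e-07 and 0.00018. The widest time difference among the tested members was that of 245325_at in phyB-1, which rose by 4.14 ± 0.38 (limma adjusted p = 7.0e-07). In Ler it rose by 0.94 ± 0.27 (limma adjusted p = 0.015). Calls in phyB-1 alone were 2, 258158_at and 255694_at. The former fell by 2.76 ± 0.39 in phyB-1 (limma adjusted p = 8.4e-05), and its difference in Ler was -0.70 ± 0.28 (0.078).

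The arrays labelled phyB-1 at 16 °C did not follow these members by their labels. There 264146_at read 833 and 279 at 4 h and 167 and 916 at 10 h, so the array of each time in replicate 2 stood with the other time. The differences in that group were not tested for time.

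**Figure D4:**
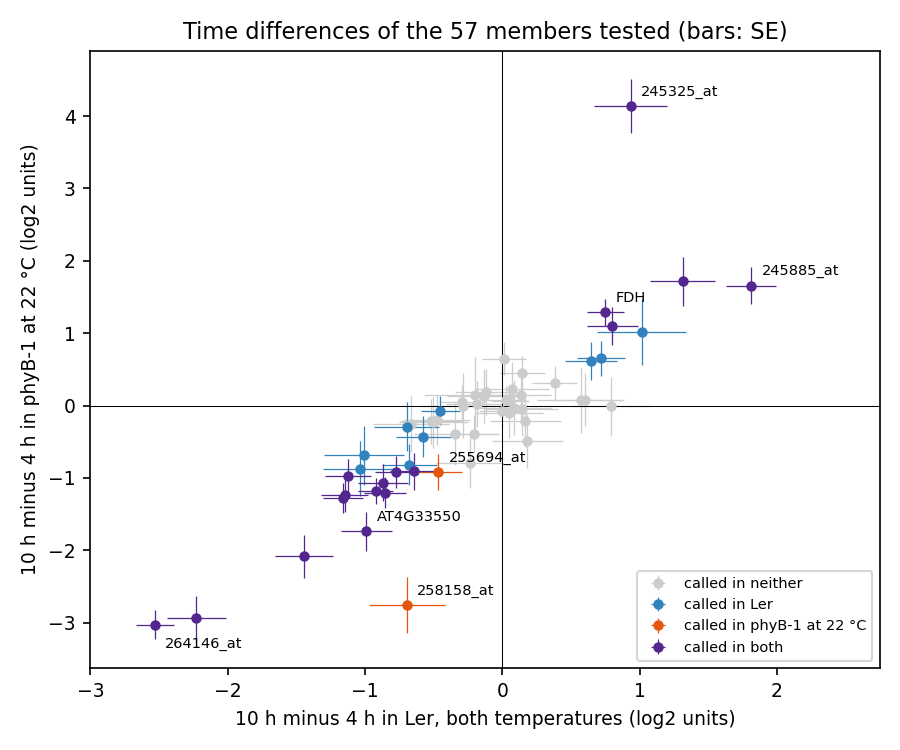
Each point is 1 of the 57 members tested, with its difference between 10 and 4 h in Ler over both temperatures on the horizontal axis and in phyB-1 at 22 °C on the vertical axis, both in log2 units with bars of 1 SE. Colours give the calls at an adjusted p of 0.05, and the called members lie in the lower left and upper right, with 17 called in both genotypes and none going opposite ways. The share of all tested probe sets called in both is not given.

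Whether the time difference itself differed between the genotypes was tested at 22 °C by the genotype by time term. None of the 57 members was called by limma, nor was any of the 13648 probe sets (0%). At an unadjusted p under 0.05 there were 2 members, where 1.80% of all were. The smallest adjusted p was that of 245325_at, an unlisted member, at 0.32. It read 25.4, 9.89, 48.6 and 62.1 in Ler and 37.9, 31.5, 830.3 and 922 in phyB-1 at 22 °C. The 2 phyB-1 arrays of 10 h stood far above the other 6, and the term was 3.02 ± 0.53. With the replicate number as a block its adjusted p in limma was 0.033, and it was then called.

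Whether the time difference in Ler depended on temperature was tested by the temperature by time term, which called 1 member, 264146_at, and 0.271% of all probe sets. The term was -1.48 ± 0.28 with a limma adjusted p of 0.028: at 22 °C the 4 h arrays read 912 and 1234, at 16 °C 284 and 373, and at 10 h the temperatures differed by less. The call was lost without any of 5 of the 8 Ler arrays, namely both of 22 °C 10 h, 22 °C 4 h replicate 2, 16 °C 4 h replicate 1 and 16 °C 10 h replicate 2, with adjusted p of up to 0.19. At an unadjusted p under 0.05 stood 6 members, where 8.20% of all did. With the replicate block 2 members were called, against 126 of all probe sets in place of 37.

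Of 160 genes in 17 lists, 37 had a named probe set, and the members among them were EXPA15 of the cell wall list and PYK10 of the root markers. IAA29, GH3.5 and MYC3 of these lists also passed the thresholds and were left out by name. Of the 14 auxin response genes 4 were measured, with medians of 0.40 at 16 °C and 0.56 at 22 °C, and IAA29 and GH3.5 were the 2 that reached 0.5. Phytochromes, PIFs, brassinosteroid, salicylate and clock genes of these lists had no named probe set. Of the 18 shade avoidance genes 5 did, with medians of 0.02 at 16 °C and 0.29 at 22 °C. Of these, IAA29 was the probe set left out by name, with 0.68 and 1.3, and HAT2 had -0.02 and 0.56. In the time test in Ler the cell wall list had 1 of 4 tested genes higher and 2 lower at 10 h, and the shade avoidance list none higher and 2 of 4 lower. Of all tested probe sets 13.0% were called higher and 13.1% lower, and 4 genes per list are too few to set against these shares.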

How the data were processed

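Intensities of 16 ATH1 arrays were used as deposited: linear signal intensity, 1 value per probe set, made with MAS5 and GCOS, per the submitters' processing notes, with versions not given in the sources used here. Of 22810 probe sets, 64 controls were left out. Names came from the platform annotation table, in which 13513 probe sets had 1 gene, 503 had several and 8730 were not listed, and from the RefSeq gene table of TAIR10.1, to which 13484 of those with 1 gene were matched. The build behind the array files is not given in the sources used here, so the gene order is that of TAIR10.1 and no coordinates are printed. The members and the gene lists were chosen with earlier results of these data known.

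Values were analysed as log2(intensity + 16) in R 4.3.3 with limma 3.58.1 (lmFit, eBayes with an intensity trend, Benjamini-Hochberg adjustment over all tested probe sets). The 13648 probe sets in the upper 60% by mean over all 16 arrays were tested. They entered 1 fit of 12 arrays with 1 mean per group, and adjusted p-values are those of this fit across all probe sets. The steps were tested on simulated data. The number of arrays, 2 per group, limits the precision.

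The deviations of arrays with the same replicate number from their group means correlated at 0.151 to 0.482 in all 15 pairs of the 6 groups tested, so the number, taken from the labels, pairs the arrays. The fit behind the printed p-values has no block, and the fit with the number as a block is an alternative. It is given where it changes a count or the call of a single-gene result that was checked. Genes were named by rule: up to 12 with the largest smaller difference at an intensity of at least 50, 2 unlisted probe sets, list members, the largest called time differences, those nearest the threshold, and the largest temperature differences in phyB-1. AT3G57010, AT3G44050, AT5G01210, AT5G17850, AT1G19320, AT1G67420, AT2G12050, AT4G08680, the genes around MYC3, the other list genes and the other unlisted probe sets were named outside this rule, after their values were seen. Alternatives were other offsets, quantile normalization, other filters, the replicate block, all 16 arrays, 14 arrays, no intensity trend and each array left out.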

Additional observations from a re-analysis of the deposited data

Results flagged for a closer look

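Of the results looked at, 1 stood out because the same contrast differed between groups by a test. In 264146_at the difference between 10 and 4 h in Ler was larger at 22 °C than at 16 °C, with a temperature by time term of -1.48 ± 0.28 on the log2 scale and a limma adjusted p of 0.028. This call was lost without any of 5 single Ler arrays, without a filter, with all 16 arrays and with no intensity trend. A check for single arrays far from the others, in 60 groups of 4 arrays, found none. It did not cover every member, and each group pooled 4 h and 10 h arrays. Single arrays did stand apart in members described above. In AT1G09500 at 22 °C 1 phyB-1 array read 1.3, beside 14.2 to 15.1 on the others. In AT3G57010 at 22 °C 1 Ler array read 18.2, beside 0.622 to 2.13.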

How the results depend on the processing

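The number of members, 75, depended on the offset added before the logarithm: it was 569 with an offset of 1, 162 with 8, 38 with 32 and 12 with 64, of which 64, 71, 37 and 10 were among the 75. It was 162 in replicate 1 alone, 98 in replicate 2 alone, 165 in the 4 h arrays alone, 196 in the 10 h arrays alone, 19 at a difference of 0.7 and 5 at a difference of 1. Leaving out 1 array gave 72 to 109, and leaving out both disputed arrays gave 107, 61 of them among the 75. A larger offset weighs dim signal less, but the probe sets gained or lost were not split by intensity. The part of dim signal in the counts by offset was therefore not tested.

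For the time difference in Ler, 26 members, leaving out 1 array gave 21 to 25, all 16 arrays gave 18 and the replicate block gave 30. In phyB-1 at 22 °C, 19 members, the range was 14 to 20, the replicate block gave 21, all 16 arrays gave 8, and 14 arrays without the disputed ones, with the block, gave 21. The cause of the lower count with all 16 was not tested. Over all probe sets the fit of 16 arrays called 334 in phyB-1 in place of 2152 and 2346 in Ler in place of 3559, and single arrays left out gave 1274 to 2263 in phyB-1. The genotype by time count was 0, also without each array (0 to 0), and 1 with an offset of 32 or 64, with the replicate block and in 14 arrays with that block. The temperature by time count was 1 member, 0 without a filter, with all 16 arrays or with no intensity trend, 2 with an offset of 64, the replicate block or 14 arrays with it, and 0 to 2 without 1 array. The cause of these changes was not tested either. Over all probe sets it was 37, with 9 without a filter, 3 with no intensity trend, 0 in all 16 arrays, 126 with the block, 120 in 14 arrays with it and 2 to 52 without 1 array. The replicate block changed no other call among the single genes described.

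Of 32 time and interaction results of single genes, each under up to 23 alternatives, 681 values kept direction and call, 43 lost the call, 4 gained it and 1 changed sign. The last was AT1G48750 in phyB-1 at 22 °C, not called, which ranged from -0.16 to 0.0205 without single arrays and was above 0 without the 10 h array of replicate 2. With all 16 arrays EXPA15, AT5G44400, AT5G23750 and AT3G05640 lost their calls in phyB-1, and THI2.2, AT1G48750, AT3G07350 and AT5G46780 lost theirs in Ler. Without a filter AT3G05640 lost its call in phyB-1, and THI2.2, AT3G07350 and AT5G46780 lost theirs in Ler.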
